A study of Mus musculus with 3 samples.

Results

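A group of 197 nuclei rich in Reln, Nxph1 and Grik1 transcripts was examined among 9027 mouse brain nuclei. It held 70 of 2679 nuclei in replicate 1, 50 of 2769 in replicate 2 and 77 of 3579 in replicate 3. The nuclei were chosen by the unique molecular identifiers (UMIs) of 8 genes, scaled to the total of each nucleus (CPM, counts per 1000000 UMIs). Reln and Nxph1 had to reach 200 CPM and Grik1 300 CPM. Pard3b had to stay under 200, Chrm2 under 600 and Tox under 300 CPM, and nuclei with both Zfhx3 and Htr2c at 500 CPM or more were left out. They are called the Reln/Nxph1 nuclei here, and "members" in the plots.

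The tissue was the brain of uninjured C57BL/6 mice, and its neurons with axons to the lumbar cord carried a retrograde label. Labelled tissue was cut out of sagittal slices under fluorescence and frozen, and its nuclei went through a cell sorter. The 3 libraries, made on the 10x Genomics platform, form 1 group of biological replicates with no treatment or second genotype. No source used here gives the tracer, the number of animals behind a library or any regional dissection, so the hindbrain origin named for these nuclei rests on their transcripts alone.

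Axons that descend from the brainstem to the spinal cord carry commands for posture, locomotion and autonomic control, and many start in the reticular formation of the pons and medulla. Meis1 and Meis2, homeodomain partners of the Hox factors, are expressed widely in the hindbrain. Reelin, the product of Reln, is a secreted glycoprotein that binds the receptors encoded by Vldlr and Lrp8 and acts through the adaptor Dab1. Neurexophilin 1, the product of Nxph1, is a secreted ligand of alpha-neurexins at synapses. Grik1 encodes the kainate receptor subunit GluK1. Lhx3 is a LIM homeodomain factor of V2a neurons, excitatory ipsilateral neurons of the hindbrain and spinal cord.

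The comparison group comprised the other nuclei with Meis1 and Meis2 together at 200 CPM or more and Tox under 300 CPM. These 2832 other Meis nuclei numbered 973, 766 and 1093 in replicates 1, 2 and 3. Within them, 299 were over the limits on Zfhx3 and Htr2c alone, 324 over that on Pard3b alone and 209 over that on Chrm2 alone. The remaining 2000 included nuclei over several limits. Nuclei with Tox at 300 CPM or more, a gene high in corticospinal neurons, served as a contrast for background RNA.

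The libraries held 27435221, 74287112 and 60490064 UMIs in 2710, 11094 and 3713 barcodes, and between 2679 and 3579 barcodes per library passed the limits of 1000 or more genes and 5% or less of mitochondrial UMIs. The Reln/Nxph1 nuclei had a median of 7431.5, 12816.5 and 11916 UMIs in replicates 1, 2 and 3, and the other Meis nuclei 7035, 15050.5 and 10583. Only 1 of the 197 was called a doublet, and doublets were kept. No barcode was shared between libraries among the 197, and 1 to 3 passing barcodes were shared per pair of libraries. All p-values rest on the spread between these libraries, which may in part be technical, and both groups of nuclei were selected from expression in the same libraries. In the main edgeR comparison each gene's spread was drawn strongly toward a value shared over genes (prior degrees of freedom 24.5 beside 2 residual). A small p-value therefore need not mean that a gene was even over the libraries.

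The Reln/Nxph1 nuclei were a small share of the Meis nuclei. They made up 6.26% (95% exact Clopper-Pearson interval 4.87 to 7.91), 6.13% (4.58 to 8.0) and 6.18% (4.87 to 7.72) of the Meis nuclei in the 3 libraries, a mean of 6.19% ± 0.0678 (SD, n = 3). Applied to nuclei thinned to 5000 UMIs, the rule gave 5.84%, 4.05% and 4.50%, so the evenness of the libraries held for the unthinned rule and not for this one. Of all passing nuclei they were 2.61% (2.04 to 3.29), 1.81% (1.34 to 2.37) and 2.15% (1.70 to 2.68). These intervals cover counting error only, and the sort and dissection can set the share of all nuclei. Of the 197, 10 lay under 200 CPM of Meis1 and Meis2 together.

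The 3 floors were met by 480 nuclei. Pard3b removed 160 of them, Zfhx3 with Htr2c 107, Chrm2 51 and Tox 11, with overlaps. Nuclei that met every other condition but missed the Reln floor numbered 248, of which 197 had no Reln UMI. For Nxph1, 159 missed, 129 of them without a UMI, and for Grik1 168 missed, 111 without a UMI. Close to the limits, 18 nuclei lay at 150 CPM of Reln or just above it and under the floor (median 171 CPM), and 8 lay between the floor and 250 CPM (median 215). The corresponding numbers were 13 and 12 for Nxph1 (medians 181 and 229 CPM) and 9 and 13 for Grik1 (medians 261 and 347 CPM, between 225 and 375).

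The genes that chose the nuclei are given as a description. Reln was at 869, 616 and 833 CPM of the summed UMIs in replicates 1, 2 and 3, with a mean of 773 ± 137 (SD, n = 3). Nxph1 was at 860, 709 and 940 CPM (837 ± 118), and Grik1 at 1314, 980 and 1175 CPM (1156 ± 167). Replicate 2 was lowest for all 3 genes. Across single nuclei, Reln ran from 210 to 3089 CPM around a median of 711, Nxph1 from 204 to 2935 around 647 and Grik1 from 303 to 3318 around 1010. Reln was as high in the Pard3b nuclei (764 ± 33.3), at 361 ± 27.9 in the Zfhx3 and Htr2c nuclei and at 148 ± 35.8 in the remaining Meis nuclei. In the Tox nuclei it was at 16.9 ± 7.43.

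Sema5a, Ankfn1 and Lhx3 were named with the group and are likewise given as a description. They stayed in the edgeR comparison below, where each was called higher, and those calls add no support. Sema5a, a transmembrane semaphorin, was at 479, 359 and 478 CPM (439 ± 69.3, SD, n = 3) against 598 ± 52.5 in the Pard3b nuclei and 135 ± 15.6 in the remaining Meis nuclei. Ankfn1, which encodes a protein with ankyrin repeats and a fibronectin domain, was at 104, 190 and 180 CPM (158 ± 47.2) against 113 ± 12.4 in the Zfhx3 and Htr2c nuclei and 57.8 ± 6.51 in the Pard3b nuclei. Lhx3 was at 46.7, 47.8 and 54.8 CPM (49.8 ± 4.36), with 51.8 ± 6.68 in the Pard3b nuclei and 9.87 ± 1.20 in the remaining Meis nuclei. The libraries of the Reln/Nxph1 and Pard3b nuclei overlapped for Lhx3, and each of the Lhx3 values in the Reln/Nxph1 nuclei lay above those of the Zfhx3 and Htr2c, Chrm2 and remaining Meis nuclei.

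**Figure D1:**
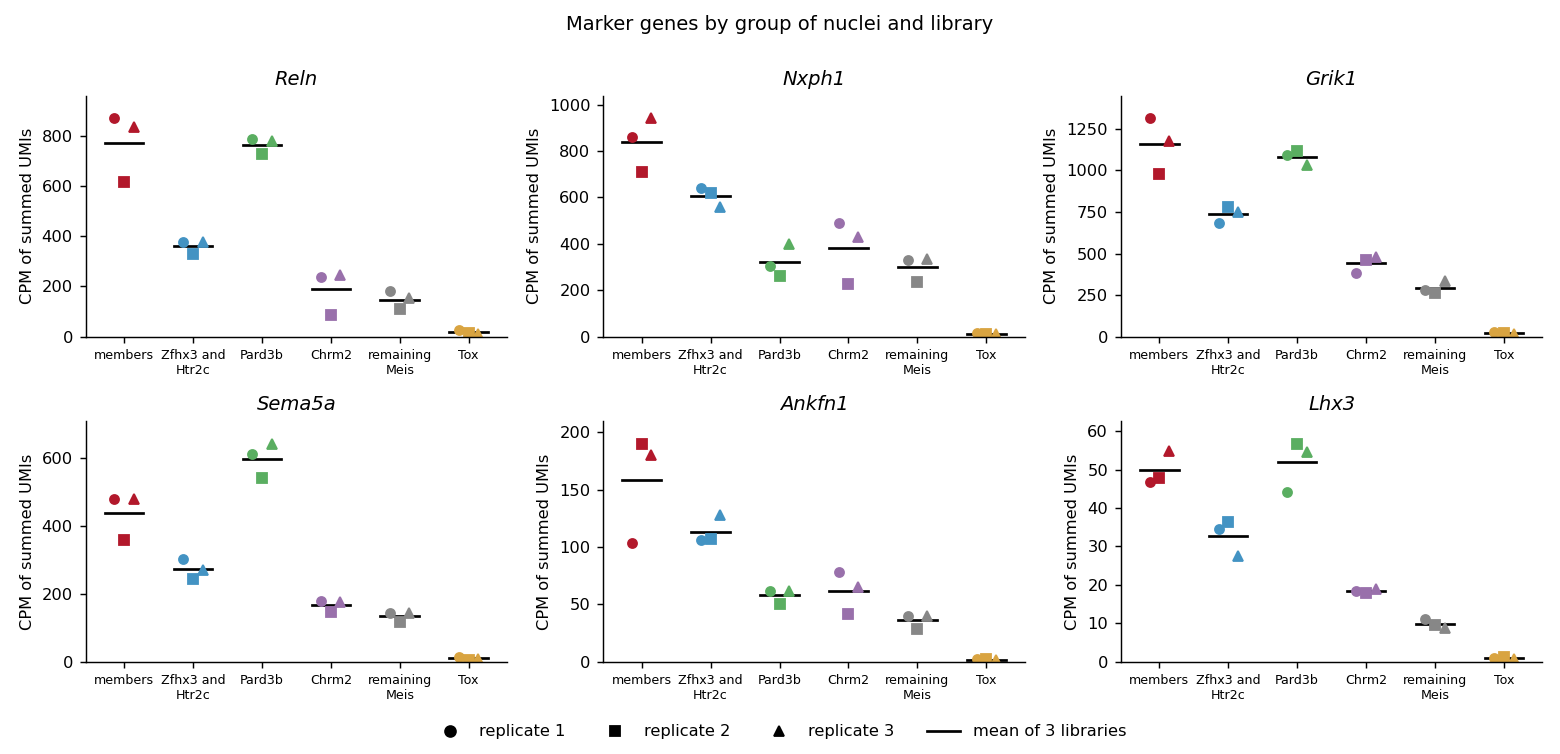
CPM of summed UMIs (vertical axes) of the 6 marker genes in the Reln/Nxph1 nuclei (members), 4 groups of other Meis nuclei and the Tox nuclei; symbols are the 3 libraries and lines their means. Lhx3 reaches like levels in members and Pard3b nuclei (means 49.8 and 51.8 CPM), Sema5a is higher on average in Pard3b nuclei (598 against 439 CPM), Ankfn1 is higher on average in members (158 against 57.8 CPM), and all 6 genes are lowest in Tox nuclei.

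Lhx3 was detected in a minority of the nuclei. It was seen in 40.6% of the 197 nuclei and Ankfn1 in 56.3%, and Sema5a in 88.8%. After thinning to 5000 UMIs, which kept 169 nuclei and left out 28, Lhx3 was seen in a mean of 20.2% ± 7.95 (SD, n = 3; 41.0% unthinned) and in 0.702% ± 0.166 of the Tox nuclei. The Tox nuclei were deeper before thinning, with medians of 12325, 26360 and 19340 UMIs. Background RNA was not estimated. The hypothalamic peptide transcript Hcrt was seen in 31.9% ± 17.9 of the thinned Reln/Nxph1 nuclei and in 23.7% ± 11.5 of the thinned Tox nuclei. Its mean share in the thinned Reln/Nxph1 nuclei was larger than that of Lhx3.

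Lhx4, Sox14 and Shox2, further markers of the V2a list, were present at low levels. Lhx4 was at 33.0 ± 5.74 CPM (SD, n = 3) against 24.7 ± 3.78 in the other Meis nuclei, and Sox14 at 10.0 ± 6.89 against 8.54 ± 2.85. Neither was called (log2 fold changes 0.43 and 0.19 with edgeR adjusted p of 0.305 and 0.901). Shox2, a homeodomain factor of excitatory rhythm-related neurons, was at 32.8 ± 5.65 against 18.1 ± 4.90 CPM, a log2 fold change of 0.84 ± 0.22 (SE, edgeR adjusted p = 0.0214), under the size needed for a call. Of the 169 thinned nuclei, 36 had an Lhx3 UMI, 26 had an Lhx4 UMI and 7 had both. The 5 V2a markers summed to between 133 and 141 CPM in the Reln/Nxph1 nuclei, between 139 and 207 in the Pard3b nuclei, between 113 and 171 in the Zfhx3 and Htr2c nuclei and between 49.9 and 66.5 in the remaining Meis nuclei.

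Slc17a6 was detected and markers of inhibitory transmission were near 0. Slc17a6, which encodes the vesicular glutamate transporter VGLUT2, was at 137, 78.9 and 108 CPM (108 ± 28.9, SD, n = 3) against 98.2 ± 13.5 in the other Meis nuclei and 7.48 ± 0.689 in the Tox nuclei. After thinning, 40.4% ± 8.46 of the nuclei had an Slc17a6 UMI, against 3.74% ± 0.574 of the Tox nuclei. Slc17a7, the cortical transporter gene, was seen in 5.68% ± 6.50 of the thinned Reln/Nxph1 nuclei and in 42.1% ± 9.69 of the thinned Tox nuclei. Gad1 had no UMI, Slc32a1 had 1, Slc6a5 had 2 and Gad2 had 5 among 2363650 UMIs.

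Several markers of other cell types were absent, while microglial markers were present. All 4 astrocyte and all 4 serotonergic markers had 0 UMIs, as did Chat and Slc18a3. The 5 corticospinal markers summed to between 39.8 and 81.3 CPM, against 130 to 222 in the other Meis nuclei, where the remaining Meis nuclei had 163 to 258, and 1301 to 1349 in the Tox nuclei. Oligodendrocyte markers summed to 15.6 to 37.9 CPM against 26.5 to 37.6 in the other Meis nuclei. Microglial markers, P2ry12 among them, summed to 125 to 181 CPM against 109 to 136 in the other Meis nuclei and 48.9 to 63.3 in the Tox nuclei, and their part in the results was not tested. C1ql2, a marker on the red nucleus list, was at 25.8 ± 1.74 CPM against 14.8 ± 3.45 (SD, n = 3). Its log2 fold change was 0.88 (edgeR adjusted p = 0.0210), under the size for a call, and it was at 48.1 ± 19.5 CPM in the Pard3b nuclei. The other red nucleus markers went the other way, with 0 UMIs of Pou4f1 (1.44 ± 0.869 CPM in the other Meis nuclei) and 1 UMI of Ttc6 (2.89 ± 0.632). Hcrt was at 66.9 ± 36.8 against 78.2 ± 43.6 CPM. Adarb2, a gene also used as an interneuron marker, was at 635 ± 67.7 CPM, while Lhx6, Vip and Dlx1 had 0 UMIs.

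Anterior Hox genes were detected in the group. Hoxd3 was at 22.5, 28.7 and 22.1 CPM (24.4 ± 3.69, SD, n = 3) against 16.1 ± 4.09 in the other Meis nuclei and 0.493 ± 0.245 in the Tox nuclei. Hoxb3 was at 12.3 ± 5.02 against 9.11 ± 1.20 and Hoxc4 at 10.9 ± 4.21 against 8.75 ± 1.06. Of 30 Hox genes 6 passed the filter on low counts and none was called in either direction by edgeR; 1 had an unadjusted p under 0.05, and their median log2 fold change was 0.45.

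When all passing nuclei were clustered without the genes of the rule, 144 of the 197 (73.1%) fell into 1 of 26 clusters, numbered 7. They came from all 3 libraries (48, 36 and 60 nuclei). Cluster 7 held 475 nuclei, of which the Reln/Nxph1 nuclei were 30.3%. It also held 93 Zfhx3 and Htr2c nuclei, 40 Pard3b nuclei, 24 Chrm2 nuclei and 159 remaining Meis nuclei. A further 22 members lay in cluster 9, which held 68.2% of the Pard3b nuclei, and 15 in cluster 3. The rule therefore took out a part of a wider cluster, and the limits on Pard3b, Chrm2, Zfhx3 and Htr2c did not follow its borders. Cluster 7 was led by Reln, Ankfn1, Unc5d, Adarb2 and Grik1, which describes the cluster and is no result.

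**Figure D2:**
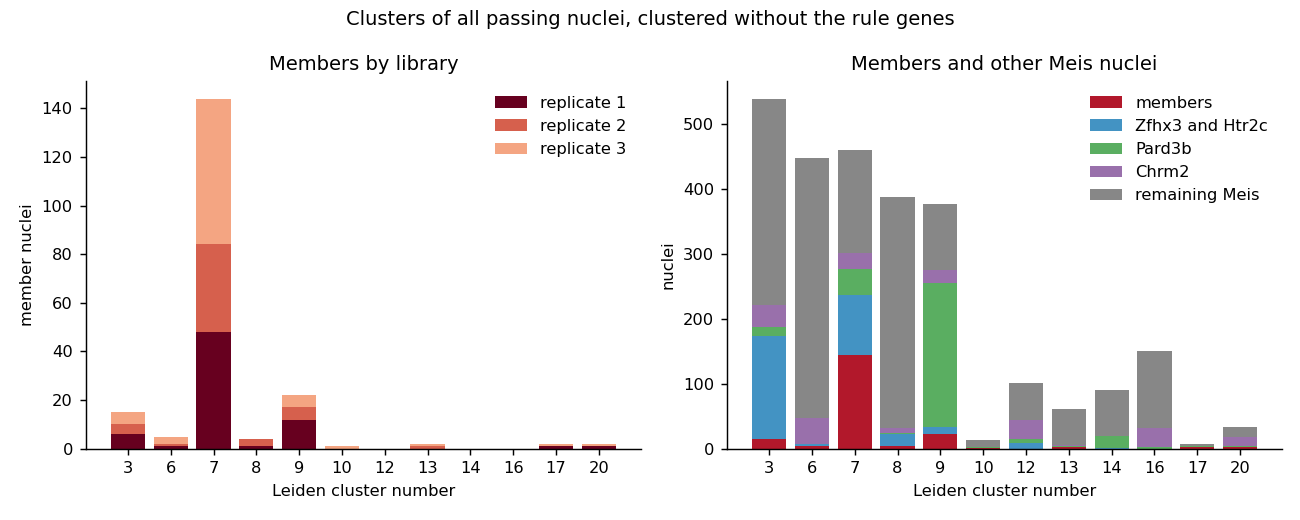
Number of nuclei (vertical axes) per Leiden cluster (horizontal axes), on the left for the 197 members by library and on the right for members and the 4 groups of other Meis nuclei. Cluster 7 holds 144 members, and cluster 9 holds 22 members beside most of the Pard3b nuclei.

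UMIs were then summed per library and group and compared with edgeR's quasi-likelihood test with the library as a block and Benjamini-Hochberg adjustment over 14614 genes. Calls needed an adjusted p under 0.05 and a log2 fold change of 1 or more in size, and rule genes were not counted. Compared with the other Meis nuclei, 51 genes (0.349%) were higher and 325 (2.22%) were lower in the Reln/Nxph1 nuclei. Together these were 2.57% of the tested genes. The higher genes included Sema5a, Ankfn1 and Lhx3, which were named with the group, so their calls are no independent result. The CPM of the 3 libraries did not overlap between the groups for 16.0% of genes, and the median log2 fold change over all genes was 0.01. A sum can differ because more nuclei carry a gene or because each carries more of it, and these were not separated.

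The guidance receptor Unc5d and the factor Tshz1 were higher than in the other Meis nuclei. Unc5d, a netrin receptor of the UNC5 family (chr8:28646717-29219636, GRCm38), was at 1122, 774 and 995 CPM (963 ± 176, SD, n = 3) against 394 ± 72.0 in the other Meis nuclei. All of its values lay above those of the other group, a log2 fold change of 1.32 ± 0.08 (SE, edgeR adjusted p = 2.80e-12). The Zfhx3 and Htr2c nuclei, at 834 ± 62.8 CPM, and the Chrm2 nuclei, at 695 ± 149, overlapped the Reln/Nxph1 nuclei for Unc5d. Tshz1, a teashirt zinc finger factor, was at 91.7, 111 and 127 CPM (110 ± 17.9) against 37.9 ± 6.94, a log2 fold change of 1.58 ± 0.13 (edgeR adjusted p = 8.35e-10). Its level in the Pard3b nuclei was 114 ± 7.33 CPM, so that Tshz1 was not particular to the Reln/Nxph1 nuclei.

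Tac1, the precursor gene of substance P and neurokinin A (chr6:7554879-7565834), was at 36.3, 27.5 and 35.8 CPM (33.2 ± 4.96, SD, n = 3) against 7.49, 6.95 and 14.5 CPM (9.64 ± 4.20). The groups did not overlap, and the log2 fold change was 1.80 ± 0.26 (SE, edgeR adjusted p = 1.68e-05). These values rest on 78 UMIs in 41 of the 197 nuclei. In the Zfhx3 and Htr2c nuclei Tac1 was at 10.7, 14.7 and 36.0 CPM (20.5 ± 13.6), which overlapped the Reln/Nxph1 nuclei. Tac1 was not called against those nuclei. Tac1 was the called gene among 11 tested neuropeptide genes, and Cck (24.3 ± 16.9 against 29.5 ± 14.8 CPM) and Penk (2.83 ± 0.972 against 5.06 ± 0.726) were not called. The neuropeptide list had a median log2 fold change of -0.30, and 0.349% of all tested genes were called higher.

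The matrix gene Frem1 and 2 transcripts of the Tmem132c locus were also higher. Frem1 was at 48.9 ± 11.9 CPM against 20.5 ± 1.88 (SD, n = 3), a log2 fold change of 1.30 ± 0.17 (edgeR adjusted p = 7.81e-06). Tmem132c (chr5:127241808-127565793, plus strand) was at 134 ± 8.99 against 59.7 ± 4.74 CPM, a log2 fold change of 1.20 ± 0.12 (edgeR adjusted p = 4.48e-08). Tmem132cos is annotated on the opposite strand inside Tmem132c (chr5:127256858-127281634). It was at 73.5 ± 13.8 against 29.2 ± 10.5 CPM, a log2 fold change of 1.36 ± 0.15 (edgeR adjusted p = 4.29e-07). No source used here says whether the authors' counting used strand, so reads of the 2 transcripts may not be separable. The calls of Frem1 and Tmem132c were lost with nuclei thinned to 5000 UMIs (log2 fold changes 0.91 and 0.93). That of Frem1 was also lost against the equally weighted mean of the 4 groups of other Meis nuclei (0.93), and that of Tmem132c within 8 clusters made up mostly of Meis nuclei (0.99).

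Among the named higher genes, Dbt, Myo1f and Irgm1 had the largest fold changes, and each owed at least 50.9% of its UMIs to 1 nucleus. Dbt, a subunit gene of branched-chain keto acid dehydrogenase, was at 62.3, 148 and 13.7 CPM, with 66.5% of its UMIs in 1 nucleus. Its log2 fold change was 2.40 ± 0.32 (SE), and 0.19 (edgeR adjusted p = 0.891) with the 144 nuclei of cluster 7 alone. Myo1f, a myosin gene, was at 15.6, 61 and 6.32 CPM, with 77.3% of its UMIs in 1 nucleus; without replicate 2 its log2 fold change went from 2.32 to 1.08 (edgeR adjusted p = 0.343). Irgm1, an interferon-inducible GTPase gene, was at 60.6, 75.3 and 10.5 CPM, and its log2 fold change of 2.06 became 1.20 without the largest nucleus.

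Prdm6 and Tafa2 were among the named genes with the lowest levels relative to the other Meis nuclei. Prdm6, a PRDM family gene, had 0 UMIs in the 197 nuclei, against 17.5, 28.1 and 21.3 CPM in the other Meis nuclei, which makes it at least 17.6-fold lower against a floor of 3 counts over the group (1.27 CPM; edgeR adjusted p = 1.45e-07). In the Chrm2 nuclei Prdm6 was at 47.7 ± 14.2 CPM (SD, n = 3) and in the Zfhx3 and Htr2c nuclei at 1.75 ± 1.52. Tafa2, a secreted chemokine-like peptide gene (chr10:123263996-123741204), was at 38.1, 22.7 and 53.7 CPM (38.2 ± 15.5) against 279 ± 27.8, a log2 fold change of -2.81 ± 0.15 (SE, edgeR adjusted p = 6.26e-13). The Pard3b nuclei had a like level of 40.9 ± 13.8 CPM.

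Cdh12, a classical type II cadherin, was at 182, 233 and 143 CPM (186 ± 45.1, SD, n = 3) against 542 ± 43.6, a log2 fold change of -1.53 ± 0.12 (SE, edgeR adjusted p = 2.97e-10). Hydin, a gene of motile cilia, was at 3.50 ± 2.46 against 31.6 ± 12.7 CPM, a log2 fold change of -3.09 ± 0.37 (edgeR adjusted p = 1.05e-06). Nox4, an NADPH oxidase gene, was at 2.17 ± 2.42 against 27.4 ± 6.43, a log2 fold change of -3.65 ± 0.45 (edgeR adjusted p = 2.21e-06), on 5 UMIs, and DESeq2 gave an adjusted p of 0.0585. None of the Reln/Nxph1 libraries overlapped the other group for these 3 genes. The Pard3b nuclei had a like level of Cdh12 (197 ± 31.3 CPM), so low Cdh12 was not particular to the Reln/Nxph1 nuclei. Cdh12 was at 404 ± 38.5 CPM in the Zfhx3 and Htr2c nuclei and 625 ± 70.5 in the remaining Meis nuclei. Hydin and Nox4 had means of 10.1 and 6.82 CPM in the Zfhx3 and Htr2c nuclei and 13.3 and 6.1 in the Pard3b nuclei. Their highest means, 37.9 and 35.2 CPM, were in the remaining Meis nuclei.

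A further 6 named lower genes were Ier5 and Gadd45b, both induced by stress and activity, the kinase genes Btk and Ptk2b, the potassium channel partner gene Kcnip3 and the long non-coding RNA D5Ertd615e. Their log2 fold changes lay between -3.06 and -2.61. Kcnip3 and Ptk2b had higher means in the Tox nuclei (137 ± 8.15 and 231 ± 29.0 CPM) than in the other Meis nuclei (39.2 ± 11.7 and 62.5 ± 22.5). Of the 325 lower genes, 41.8% had a higher mean in the Tox nuclei than in the other Meis nuclei, against 22.0% of all tested genes.

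Btk in the other Meis nuclei was at 163 CPM in replicate 1 and at 37.2 and 42.5 CPM in replicates 2 and 3. When the other Meis nuclei were limited to 2229 from 8 clusters made up mostly of Meis nuclei, the calls of Btk (log2 fold change -0.77), Ier5 (-1.20), Ptk2b (-0.62), Gadd45b (-0.93) and D5Ertd615e (-1.06) were lost and 145 genes were lower. How much corticospinal or other non-hindbrain RNA in the comparison group contributed to the lower genes was not tested.

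**Figure D3:**
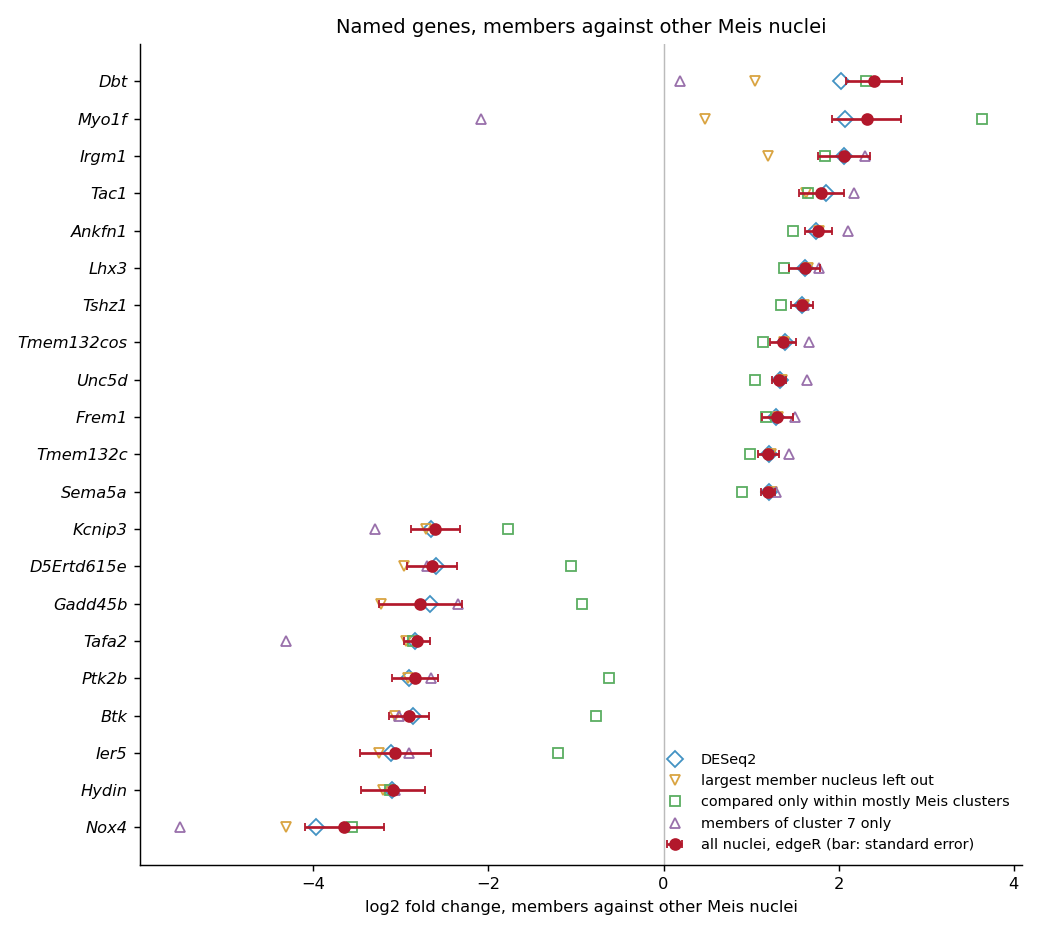
Log2 fold change (horizontal axis) of named genes between members and other Meis nuclei by edgeR (filled circles, bars are standard errors) and under 4 alternatives (open symbols); Prdm6, with 0 UMIs in members, is not drawn. Tac1, Tshz1, Unc5d, Tafa2 and Hydin keep their side under the alternatives drawn, Myo1f turns to -2.08 in members of cluster 7, and Btk and Ptk2b move toward 0 (-0.77 and -0.62) within mostly Meis clusters. Sema5a, Ankfn1 and Lhx3, which were named with the group, are drawn as a description.

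The reelin receptors and their partners were not called. None of 17 tested genes of reelin signalling was called in either direction by edgeR, 4 had an unadjusted p under 0.05 (1 higher and 3 lower), and the median log2 fold change was -0.02. Dab1, the adaptor of the reelin receptors, was at 564, 503 and 490 CPM (519 ± 39.7, SD, n = 3) against 872 ± 110, a log2 fold change of -0.71 ± 0.08 (SE, edgeR adjusted p = 4.43e-07), under the size for a call. Dab1 was at 2579 ± 160.0 CPM in the Tox nuclei. The receptor genes Lrp8 (91.2 ± 32.6 against 75.7 ± 15.9 CPM) and Vldlr (10.7 ± 1.99 against 13.6 ± 1.79) had edgeR adjusted p of 0.265 and 0.781.

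Of 21 tested neurexin ligands and partners, 1 was lower and none higher (2.57% of all tested genes were called either way), and the median log2 fold change was 0.07. The lower gene was Nxph2, the relative of Nxph1, at 2.08 ± 0.331 against 8.28 ± 3.41 CPM (SD, n = 3), a log2 fold change of -1.89 ± 0.56 (SE, edgeR adjusted p = 0.0475). That call rests on 5 UMIs and was lost under 9 of 14 alternatives. Lrrtm3, a postsynaptic neurexin partner, was at 590 ± 30.2 against 416 ± 24.8, a log2 fold change of 0.54 (edgeR adjusted p = 2.75e-05), under the size for a call. Nrxn3, a neurexin, was at 2110 ± 429 against 2881 ± 334 (log2 fold change -0.43, edgeR adjusted p = 0.000998).

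Kainate, AMPA and delta receptor genes held 3 lower and no higher genes of 20 tested, where 2.22% of all tested genes were lower, with a median log2 fold change of 0.02. Grik3, a kainate subunit, was at 27.2 ± 6.57 against 58.5 ± 10.7 CPM (SD, n = 3; log2 fold change -1.09 ± 0.17, SE). Neto1, an auxiliary kainate subunit, was at 44.1 ± 11.5 against 94.2 ± 6.99 (-1.05 ± 0.15), and Cnih3, an AMPA receptor auxiliary subunit, at 6.32 ± 2.85 against 26.3 ± 4.81 (-2.03 ± 0.30). Neto1 and Cnih3 were at 373 ± 14.7 and 124 ± 12.9 CPM in the Tox nuclei, and the calls of all 3 were lost within the mostly Meis clusters (log2 fold changes no larger in size than -1.09). Grik2, another kainate subunit, was at 1509 ± 296 against 1185 ± 199 CPM, with a log2 fold change of 0.37.

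Among 13 NMDA and metabotropic glutamate receptor genes, 1 was lower (2.22% of all tested genes were lower), with a median log2 fold change of -0.16. Grin2a, an NMDA subunit, was at 167 ± 44.1 against 349 ± 55.6 CPM (SD, n = 3), a log2 fold change of -1.03 ± 0.10 (SE), and at 1451 ± 89.0 in the Tox nuclei; that call was also lost within the mostly Meis clusters. Grin3a was at 370 ± 28.9 against 272 ± 23.6 (log2 fold change 0.47) and Grm3 at 352 ± 61.7 against 225 ± 30.4 (0.67), both under the size for a call.

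The called guidance genes went in both directions, where 0.349% of all tested genes were higher and 2.22% lower. Of 24 semaphorin, plexin and neuropilin genes, Sema6d was higher and Sema3e lower (median log2 fold change 0.04). Sema6d, a transmembrane semaphorin, was at 1625, 1351 and 1495 CPM (1491 ± 137, SD, n = 3) against 704 ± 59.8, a log2 fold change of 1.11 ± 0.08 (SE, edgeR adjusted p = 1.34e-10). It was also at 1166 ± 71.5 CPM in the Pard3b and 1057 ± 50.2 in the Zfhx3 and Htr2c nuclei. Of 24 netrin, slit and ephrin receptor genes, Unc5d was higher and 4 were lower (median -0.13), among them Dscaml1 (17.3 ± 9.10 against 84.5 ± 29.3 CPM), Epha3 (29.4 ± 1.50 against 68.8 ± 7.37) and Epha4 (12.8 ± 5.88 against 32.6 ± 5.08). Dscaml1 was at 510 ± 73.1 CPM in the Tox nuclei, and within the mostly Meis clusters its log2 fold change of -2.09 became -0.25 (edgeR adjusted p = 0.850). The calls of Sema6d (0.90), Sema3e (-0.83, edgeR adjusted p = 0.277) and Epha4 (-0.54, edgeR adjusted p = 0.529) were lost there too, and those of Sema6d (0.85), Sema3e (-1.30), Dscaml1 (-1.05) and Epha3 (-0.93) against the equally weighted mean of the 4 groups.

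Among 50 transcription factors that divide hindbrain and spinal neurons into classes, 29 were tested, 1 was higher (Tshz1) and 7 were lower, and the median log2 fold change was -0.51. Of all tested genes 0.349% were higher and 2.22% lower. Nfia, Nfib and Nfix of the nuclear factor I family, which mark late-born spinal neurons, were at 56.9 ± 6.43, 35.9 ± 11.7 and 3.15 ± 3.0 CPM against 132 ± 18.0, 119 ± 36.7 and 14.1 ± 5.48 (SD, n = 3; log2 fold changes -1.19, -1.58 and -2.22). All 3 had higher means in the Tox nuclei (465 ± 29.0, 944 ± 43.2 and 95.2 ± 13.3). Ebf1, an early B-cell factor gene of several neuron classes, was at 191 ± 38.9 against 390 ± 46.0 (-1.03) and was at its lowest mean in the Tox nuclei (11.3 ± 3.58). Its level was alike in the Zfhx3 and Htr2c nuclei (199 ± 23.0 CPM) and lower on average in the Pard3b nuclei (101 ± 37.5). The Chrm2 and remaining Meis nuclei were higher, at 308 ± 24.8 and 461 ± 61.6 CPM, so low Ebf1 was not particular to the Reln/Nxph1 nuclei. Nfia, Nfib and Ebf1 were named after their values were seen.

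Lmx1b had 0 UMIs against 3.93 ± 0.383 CPM, at least 3.10-fold lower (edgeR adjusted p = 0.0230), and Lhx9 and St18 had 2 UMIs each. The call of Nfix was lost in 6 of 15 alternatives, that of Lhx9 in 6 of 13 and that of St18 in 7 of 12. Onecut2, which marks early-born neurons, was at 153 ± 17.6 against 93.2 ± 6.1 CPM (log2 fold change 0.76, edgeR adjusted p = 1.83e-05), under the size for a call. Within the mostly Meis clusters 3 of the tested factors were lower and the median of the list was 0.10, so that its sign was not stable.

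Receptors for monoamines, acetylcholine and opioids held 3 lower and no higher genes of 19 tested, with a median log2 fold change of -0.58, where 2.22% of all tested genes were lower. Htr7, a serotonin receptor gene, was at 3.46, 13.2 and 13.7 CPM (10.1 ± 5.76, SD, n = 3) against 47.8 ± 2.60, a log2 fold change of -2.10 ± 0.24 (SE, edgeR adjusted p = 6.84e-07). It was at 5.27 ± 2.76 CPM in the Pard3b nuclei and between 40.0 and 58.2 CPM on average in the other groups of Meis nuclei. Chrm3, a muscarinic receptor gene, was at 102 ± 48.3 against 281 ± 48.2 CPM and at 962 ± 74.2 in the Tox nuclei, and its log2 fold change of -1.33 became -0.53 within the mostly Meis clusters. Oprm1, the mu opioid receptor gene, was at 8.64 ± 5.30 against 31.4 ± 2.42 CPM, with 40.9% of its UMIs in 1 nucleus, and lost its call in 2 of 15 alternatives.

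Receptors for GABA and glycine included 3 lower genes of 17 (2.22% of all tested genes were lower), with a median log2 fold change of -0.14. These were Gabra5 (12.7 ± 7.57 against 33.1 ± 1.61 CPM), Gabrg1 (6.53 ± 1.69 against 18.7 ± 4.36) and Glra3 (17.0 ± 8.46 against 36.4 ± 3.97). Each lost its call in at least 3 of 15 alternatives. Among 22 cadherins, Cdh12 and Cdh23 were lower and none was higher (median 0.15). Potassium channel genes had 1 lower of 35 (Kcnip3; median 0.02), and Kcnip4, a partner of the same channels, was at 6868 ± 871 against 4065 ± 272 CPM, a log2 fold change of 0.78. Sodium, calcium and HCN channel genes had 1 lower of 26 (Cacna1h; median 0.08). The calls of Cacna1h and Cdh23 were lost in 8 and 7 of 15 alternatives, and that of Kcnip3 in 1, the equally weighted mean of the 4 groups (log2 fold change -1.18, edgeR adjusted p = 0.171). None of 12 large projection neuron genes and none of 20 growth and regeneration genes was called by edgeR, with 2 and 5 genes at an unadjusted p under 0.05.

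The 3 nearest groups by the rule were compared in a fit of 5 groups over 11014 genes. These 3 comparisons share the same sums of the Reln/Nxph1 nuclei. The fewest genes were called against the Zfhx3 and Htr2c nuclei, with 9 higher (0.0817%) and 36 lower (0.327%), together 0.409% of the tested genes. Against the Pard3b nuclei 65 were higher (0.59%) and 93 lower (0.844%), together 1.43%, and against the Chrm2 nuclei 49 were higher (0.445%) and 131 lower (1.19%), together 1.63%. Differences between these counts were not tested, and the groups differ in size.

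Against the Zfhx3 and Htr2c nuclei, Klhl1, an actin-binding kelch protein gene, was at 19.0, 31.1 and 23.2 CPM (24.4 ± 6.12, SD, n = 3) against 207, 138 and 162 (169 ± 35.0). Its log2 fold change was -2.73 ± 0.18 (SE, edgeR adjusted p = 3.42e-09). Cpa6, a carboxypeptidase gene, was at 5.07 ± 2.93 against 148 ± 77.6 CPM (log2 fold change -4.79 ± 0.60, edgeR adjusted p = 7.31e-05). Htr7 was at 10.1 ± 5.76 against 58.2 ± 4.09 (-2.42 ± 0.28). Gad2, a GABA synthesis gene, was at 2.17 ± 2.42 against 26.2 ± 11 CPM (-3.58 ± 0.67, edgeR adjusted p = 0.00487), and at an adjusted p of 0.496 without replicate 3. Cdh22 (49.5 ± 19.3 against 21.5 ± 6.29) and Baiap3 (55.7 ± 14.9 against 23.9 ± 14.3) were higher, and each lost its call without replicate 3 (edgeR adjusted p of 0.0854 and 0.0822), without replicate 2 for Cdh22 (0.106) and without replicate 1 for Baiap3 (0.104). Limd1 was higher with 49.5% of its UMIs in 1 nucleus.

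Against the Pard3b nuclei, whose libraries overlapped theirs for Reln, Lhx3 and Tshz1, the Reln/Nxph1 nuclei were higher in Gpc6, Adarb2 and Unc5d. Gpc6, a glypican gene, was at 948, 670 and 1056 CPM (891 ± 200, SD, n = 3) against 130, 125 and 185 (147 ± 32.9), a log2 fold change of 2.65 ± 0.14 (SE, edgeR adjusted p = 3.05e-11). Adarb2, an RNA-binding deaminase relative, was at 635 ± 67.7 against 122 ± 48.4 (2.51 ± 0.18). Unc5d was at 963 ± 176 against 185 ± 47.6 (2.44 ± 0.13). Adarb2 was at a like level in the Chrm2 nuclei (658 ± 172). Gpc6 was higher in every library of the Chrm2 nuclei (1188 ± 118) than in any of the Reln/Nxph1 nuclei. Its levels in the Zfhx3 and Htr2c nuclei (887 ± 159) and the remaining Meis nuclei (949 ± 39.0) were like those of the Reln/Nxph1 nuclei. Lower genes included Ier5 (2.38 ± 1.61 against 52.2 ± 28.2 CPM), Gadd45b (2.92 ± 2.67 against 44.8 ± 32.9) and Rasef (2.30 ± 2.40 against 57.9 ± 64.8, on 6 UMIs). Hist1h2bb, a replication-type histone gene, had 2 UMIs against 97.0, 4.28 and 12.4 CPM, a level set by replicate 1.

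Against the Chrm2 nuclei, Tac1 was at 33.2 ± 4.96 against 6.36 ± 4.25 CPM (SD, n = 3), a log2 fold change of 2.34 ± 0.41 (SE, edgeR adjusted p = 0.000848; 0.0713 without replicate 3). Prph, which encodes the intermediate filament peripherin, was at 22.2 ± 4.63 against 5.06 ± 2.14 (2.05 ± 0.43, edgeR adjusted p = 0.00562; 0.0586 without replicate 1 and 0.0750 without replicate 3). Adamtsl1, a matrix protein gene, was at 55.2 ± 11.6 against 14.4 ± 2.43 (1.97 ± 0.31, edgeR adjusted p = 0.000246). Prdm6 had 0 UMIs against 48.4, 61.5 and 33.1 CPM. Tfap2b, an AP-2 factor gene, and Shroom4 had 1 UMI each, against 30.5 ± 18.3 and 25.7 ± 0.800 CPM. Myzap had 1 UMI, and its 24.9 ± 40.8 CPM in the Chrm2 nuclei came from replicate 1 (72.0, 1.98 and 0.827).

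Only 4 of the 11014 genes were higher than in all 3 of these groups, and none was lower than in all 3. Tmem132d, a transmembrane relative of Tmem132c, was at 691, 641 and 705 CPM (679 ± 33.5, SD, n = 3) against 338 ± 22.0 in the Zfhx3 and Htr2c, 149 ± 27.6 in the Pard3b and 281 ± 14 in the Chrm2 nuclei. The log2 fold changes were 1.01 ± 0.09, 2.28 ± 0.11 and 1.24 ± 0.10 (SE), and the largest edgeR adjusted p was 1.61e-06. The lowest value of the Reln/Nxph1 nuclei, 641 CPM, lay above every value of the other groups, the Tox nuclei (516 ± 27.1) included. Tmem132cos was the second gene, with log2 fold changes of 1.13, 1.28 and 1.85.

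The remaining 2 genes were Bcar3 and Dbt, which owed 53.1% and 66.5% of their UMIs to 1 nucleus. Bcar3, an adaptor protein gene, was at 60.6, 155 and 12.6 CPM, and without replicate 2 its adjusted p by edgeR lay between 0.0609 and 0.121 in the 3 comparisons.

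**Figure D4:**
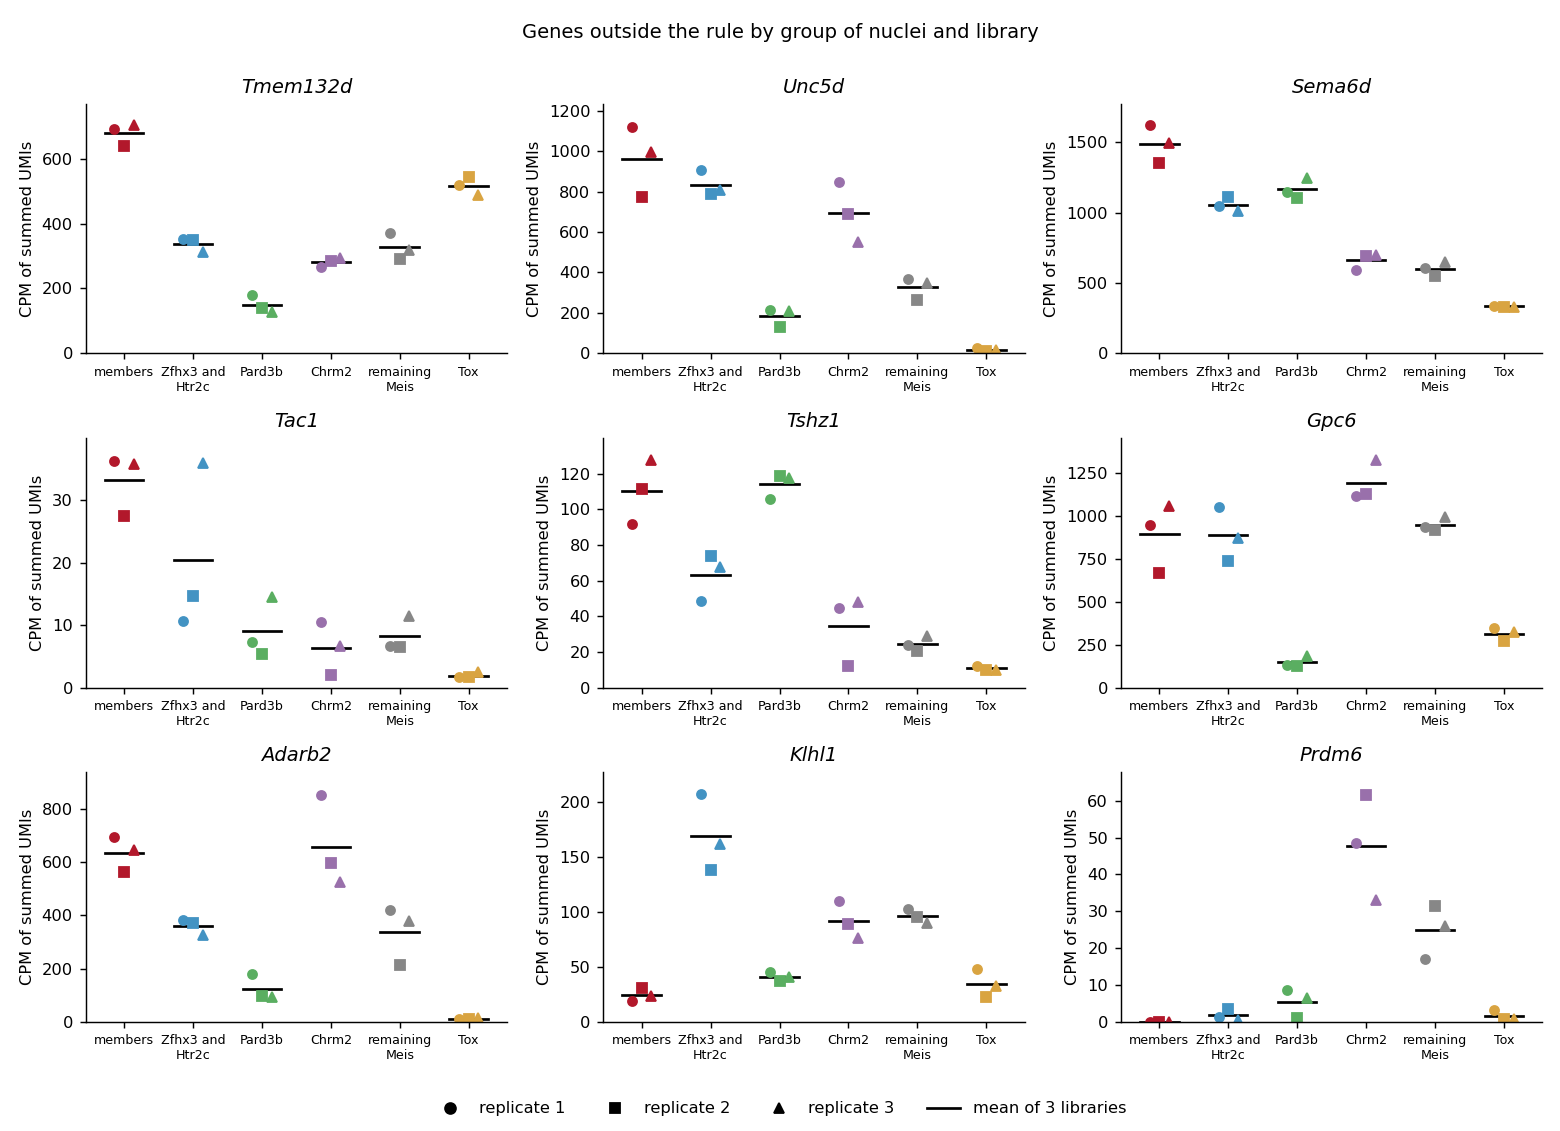
CPM of summed UMIs (vertical axes) of 9 genes outside the rule in members, 4 groups of other Meis nuclei and the Tox nuclei; symbols are the 3 libraries and lines their means. Tmem132d is highest in members (641 to 705 CPM), Tshz1 is as high in the Pard3b nuclei, Gpc6 and Adarb2 are low in the Pard3b nuclei, and Prdm6 has 0 UMIs in members.

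The 197 nuclei were not uniform. Clustered alone, without the rule genes, they fell into 4 groups of 72, 58, 47 and 20 nuclei, numbered 0 to 3, each drawn from all 3 libraries. The genes below are described with no test because the same counts made the groups. Adarb2 shows the range: 48.7% of the nuclei had a UMI, the median was 0 and the highest nucleus reached 5318 CPM.

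Group 0 (29, 14 and 29 nuclei by library; 67 in cluster 7) was richest in Hdac9, a histone deacetylase gene. Hdac9 was at 1383, 1331 and 1382 CPM (1365 ± 29.3, SD, n = 3) against means of 581, 352 and 484 in groups 1, 2 and 3. Megf11, a transmembrane adhesion gene, was at 192 ± 57.2 CPM in group 0 and 81.3 ± 36.7 in group 2. Htr2c, a serotonin receptor gene, was at 1281 ± 224 CPM, while Zfhx3 was at 284 ± 29.7.

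Group 2 (18, 15 and 14 nuclei; 44 in cluster 7) carried Luzp2, a leucine zipper protein gene, at 913, 952 and 855 CPM (907 ± 48.7, SD, n = 3), against means of 74.5, 206 and 245 in groups 0, 1 and 3. Galntl6, a glycosyltransferase gene, was at 2345 ± 122 against 577, 1036 and 347 CPM. Ntng1, encoding the axonal adhesion protein netrin-G1, was at 1139 ± 281 against 123, 484 and 408. Group 2 was also highest in the secreted semaphorin gene Sema3c (321 ± 67.3), Baiap3 (186 ± 28.6), Adamtsl1 (191 ± 48.9), Ankfn1 (369 ± 115) and Sema6d (2418 ± 414). Its Zfhx3 level was 1023 ± 72.5 CPM and its Htr2c level 170 ± 22.0. Since nuclei high in both of these genes were left out by the rule, their opposite levels in groups 0 and 2 are in part fixed by it.

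Group 3 (8, 3 and 9 nuclei; 18 in cluster 7) was the smallest and rests on 3 nuclei in replicate 2. Adarb2 was at 3087, 2869 and 3015 CPM (2990 ± 111, SD, n = 3) against means of 270, 116 and 918 in groups 0, 1 and 2, and Gpc6 at 2929 ± 150 against 1005, 514 and 168. The cation channel gene Trpm3 was at 1638 ± 443 against 162, 83.8 and 89.5 CPM. Erbb4, a neuregulin receptor gene, was at 683 ± 101, and Gabrg3, a GABA-A subunit gene, at 1836 ± 416. Grik1 was at 530 ± 29.8 CPM, below the means of 1210, 1179 and 1409 in the other groups, although all nuclei had passed the same floor.

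Group 1 (15, 18 and 25 nuclei) lay mostly outside cluster 7. Only 15 of its 58 nuclei lay in cluster 7, with 17 in cluster 9 and 11 in cluster 3. Several leading genes of groups 0 and 1 were high in 1 or 2 libraries, such as Apobec2 in group 0 at 3.93, 182 and 0 CPM and Il1rapl2 in group 1 at 189, 18.6 and 241 CPM. Unc5d (403 ± 99.5, SD, n = 3), Tmem132d (263 ± 177), Sema6d (922 ± 54.0) and Nxph1 (615 ± 72.6) were lowest there among the 4 groups.

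Tac1 and Unc5d were uneven over the groups. Tac1 had 35 UMIs in group 2 and 24 in group 3 of 78 in all, which gave 74.2 ± 21.8 and 79.1 ± 79.2 CPM (SD, n = 3) against 12.2 ± 11.8 and 8.39 ± 11.7 in groups 0 and 1. Unc5d was at 1908 ± 627 and 1945 ± 198 CPM in groups 2 and 3 and at 661 ± 59.7 in group 0. In contrast, Slc17a6 lay between 95.2 and 119 CPM and Tshz1 between 98.4 and 127 CPM on average in all 4 groups. Lhx3 was at 46.9 ± 14.4, 27.5 ± 12.9, 78.2 ± 28.1 and 56.6 ± 41.9 CPM in groups 0 to 3.

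**Figure D5:**
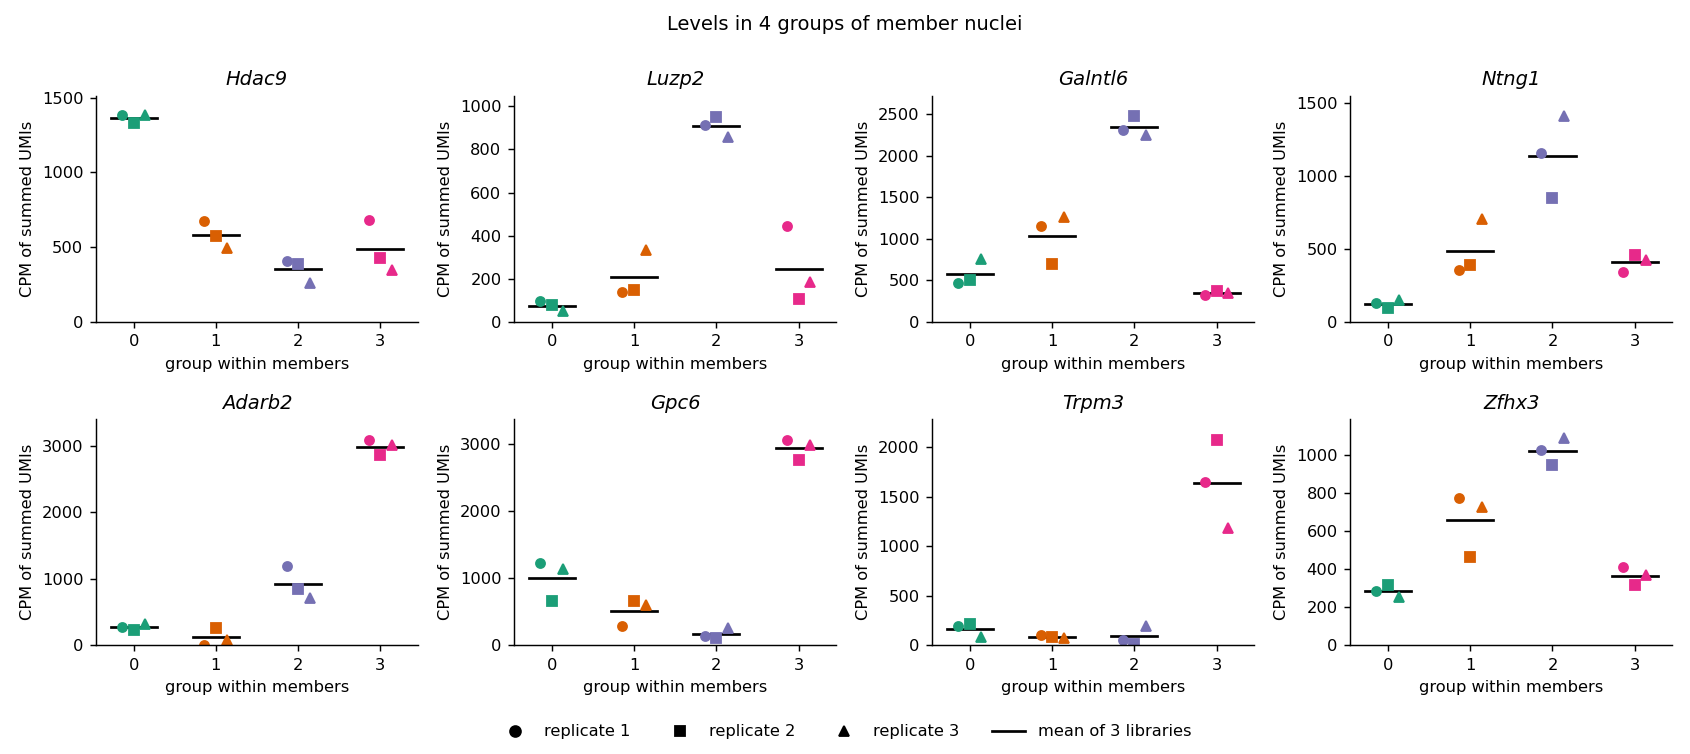
CPM of summed UMIs (vertical axes) of 8 genes in the 4 groups found within the members (horizontal axes, numbered 0 to 3); symbols are the 3 libraries and lines their means. Hdac9 is highest in group 0 (1365 CPM on average), Luzp2, Galntl6, Ntng1 and Zfhx3 in group 2, and Adarb2, Gpc6 and Trpm3 in group 3.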

How the data were processed

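UMI counts of 32285 genes in each barcode were deposited by the authors. Per the submitters' processing notes the authors used Cell Ranger 7.0.1 with mm10, whereas the file headers name 6.1.1. Use of introns and strand in counting is not given in the sources used here. Members, gene lists and comparison groups were chosen with earlier results of these data known. Depths are given in the results. Passing barcodes had 1000 or more genes and 5% or less of mitochondrial UMIs, and CPM used all UMIs of a nucleus or sum. UMIs were summed per library and group (6 sums, 2 residual degrees of freedom, or 15 sums and 8), and tested with edgeR 4.0.16 (R 4.3.3; TMM, filterByExpr, library block), since both groups of a pair come from 1 library. Standard errors are the log2 fold change over the square root of F. The fits were tested on data made with known changes and the same spread for every gene. Genes uneven over libraries or carried by single nuclei were not covered by that test. Scrublet (Scanpy 1.11.5, Python 3.11.15; expected rate 6%) marked 0.709%, 2.06% and 1.51% of passing barcodes. Leiden clustering (leidenalg 0.10.2) used 2000 variable genes without the rule genes, at resolution 1 with 30 principal components and 20 neighbours for all nuclei, and 0.5, 20 and 15 for the members alone. Named genes are the 12 highest and 10 lowest log2 fold changes among genes called, at 20 CPM or more and in 1 direction in 3 of 3 libraries, without rule genes and clone names; 4 each way per closer comparison; and up to 4 called genes per list at 5 CPM or more. Positions are from GENCODE M21 (GRCm38).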

Additional observations from a re-analysis of the deposited data

How the results depend on the processing

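Every comparison pairs groups of nuclei within a library; without the replicate block, genes higher and lower than in the other Meis nuclei numbered 24 and 94, against the Zfhx3 and Htr2c nuclei 1 and 7, against the Pard3b nuclei 37 and 33, and 30 were higher than in the Chrm2 nuclei. The 51 higher genes became 33 with DESeq2, 30 with nuclei thinned to 5000 UMIs and 21 against the equally weighted mean of 4 groups, and the 325 lower genes 130, 104 and 59. Chosen after seeing the data, leaving out the member nucleus with most UMIs of each gene (which can only lower members) gave 519 lower genes, and the mostly Meis clusters 145, where 24.5% of calls were higher genes against 13.6% in the comparison reported. Without 1 replicate, counts ran from 44 to 61 higher and 199 to 310 lower (199 without replicate 3); from 5 to 9 and 12 to 35 against the Zfhx3 and Htr2c nuclei (5 and 12 without replicate 3); from 50 to 62 and 47 to 106 against the Pard3b nuclei (47 without replicate 1, 54 without replicate 3); and from 30 to 47 and 96 to 141 against the Chrm2 nuclei (30 without replicate 3). Without a filter on low counts the closer comparisons gave 40 and 111, 109 and 258, and 88 and 234. Myo1f reversed to -2.08 in members of cluster 7 (edgeR adjusted p = 0.249). Leaving out Sema5a, Ankfn1 and Lhx3, 41 genes were named from the comparison with the other Meis nuclei. Of these, 9 kept that call in every alternative run of it (Tac1, Tshz1, Unc5d, Tmem132cos, Prdm6, Tafa2, Hydin, Htr7 and Cdh12). Members were 6.26% of Meis nuclei with at least 2000 genes, 4.34% with floors 1.5 times as high and 4.80% from thinned nuclei, and 1.53% of passing nuclei with the higher floors. Except where an alternative has fewer nuclei or genes by construction, the cause was not tested. At the depth of the smallest member sum, 577772 UMIs, 1 UMI is 1.73 CPM, so levels of a few CPM were not resolved.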
